A study of Proteus anguinus with 14 samples.

Results

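Melatonin receptors and the circadian clock tie the physiology of vertebrates to the daily cycle of light. The olm, a blind salamander of dark caves, lives without that cycle. The gene set was chosen by name: MTNR1A, which encodes the melatonin receptor type 1A, and the core clock genes CLOCK, ARNTL, PER1, PER2, PER3, CRY1, CRY2, NR1D1 and NR1D2. Of these 10 symbols, 2 name a row among the 18924 genes of the deposited table, MTNR1A and NR1D1, each with 1 row. No row used here carries the other 8 names, so that CLOCK, ARNTL, PER1, PER2, PER3, CRY1, CRY2 and NR1D2 were not analysed here. A symbol is given for 10313 of the 18924 genes, so a missing name does not show that a transcript is missing. Both members present passed the filter on low values. A wider list of 50 clock, melatonin and light-sensing genes was therefore described beside them, and 14 of these genes had a row.

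In the vertebrate clock, CLOCK and ARNTL (also called BMAL1) switch on the PER and CRY genes, whose proteins then shut their own activators off. NR1D1, the nuclear receptor REV-ERBα, is switched on by the same activators and represses ARNTL, which forms a second loop. Melatonin is released at night by the pineal gland, and MTNR1A is a G protein-coupled receptor through which cells sense it. Kinases and F-box proteins set how long the PER and CRY proteins last, and output factors such as TEF carry the rhythm to other genes. Transcripts of many clock genes rise and fall over the day, so a level stands for the time at which the tissue was taken.

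Poly(A)-selected RNA of 3 olms, called p4, p5 and p6, was measured in 14 samples of 6 organs. There were 3 samples each of liver and lung and 2 each of skin, heart, gut and brain. The animals were wild olms washed out of Croatian caves, kept alone in cold water in full darkness, and served as the untreated, non-infected arm of an infection trial. Their age, their sex and the time of day at which they were killed are not given in the sources used here. Values are the authors' TPM, a share of each sample's transcripts that is already scaled by transcript length, and normalized TPM are these values divided by a factor for each sample, from 0.519 to 2.149. TPM keep no read depth, so that errors are spreads over samples.

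Organs and animals were taken from the sample titles. In the tissue fields, heart stands for gut and lung for liver, and the reverse, but the markers followed the titles. NKX2-5, a regulator of heart muscle, stood at 333 and 229 normalized TPM in both hearts and reached 1.96 at most in other organs. Summed lung markers stood between 242.3 and 433.9 normalized TPM in lung and at most at 39.68 in other organs. Summed liver markers stood between 86440 and 181000 in liver and at most at 19180 in other organs. Of 7 listed markers of photoreceptor and pineal cells, 1 had a row, GNAT1, which ranged from 0 to 4.87 normalized TPM and was highest in the p4 brain sample. CRX, AANAT, ASMT, PDE6B and SAG were not analysed here. Transcripts of liver were found in the lung samples of p5 and p6 (summed liver markers of 19180 and 14310 normalized TPM, against 377.7 in p4). Transcripts of skeletal muscle were found in the brain and heart samples, more in p6 than in p4.

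MTNR1A was found in every organ of p4 and p6 and was low in each organ of p5. In p4 the level was 36.7 normalized TPM in skin, 30.9 in lung, 24.9 in liver, 24.4 in gut, 16.2 in brain and 13.5 in heart. In p6 it was 26.5 normalized TPM in skin, 16.4 in liver, 15.3 in heart, 12.6 in brain and 10.8 in lung. Those of p5 stood at 1.31 in gut, 1.78 in liver and 1.20 in lung. The highest p5 sample thus lay 6.10-fold below the lowest of the other 11 samples, and the groups did not overlap.

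**Figure D1:**
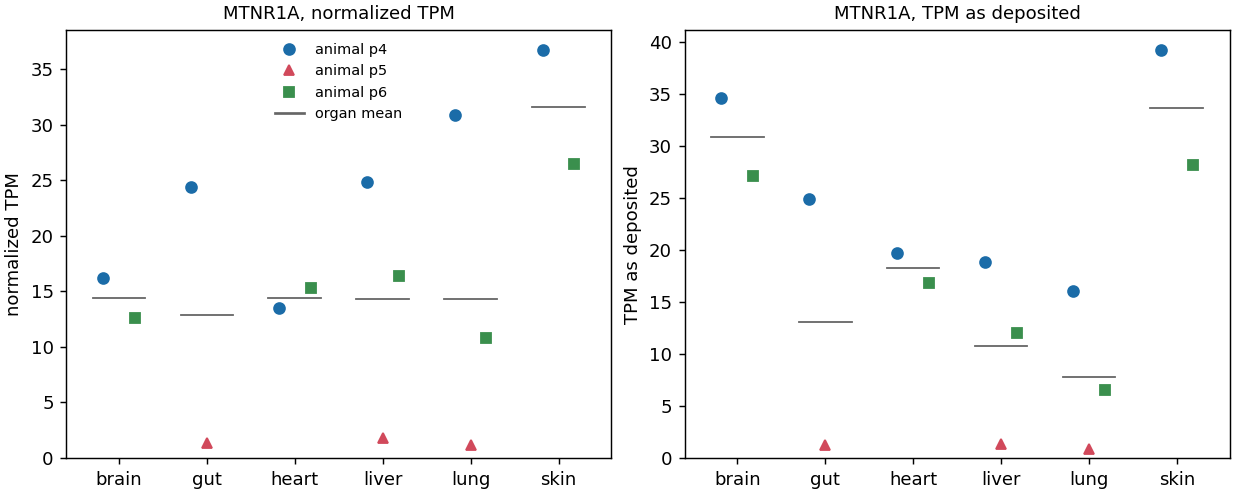
MTNR1A in each of the 14 samples by organ, in normalized TPM (left) and in TPM as deposited (right); a point is 1 sample, colour and shape give the animal, and the line is the organ mean. The p5 samples sit between 1.20 and 1.78 normalized TPM and all others between 10.8 and 36.7.

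The low level of MTNR1A in p5 was known when the gene was chosen, so it is given as a description with no test. Within liver, p5 lay 14.0-fold below p4 and 9.22-fold below p6, and within lung 25.7-fold and 9.02-fold. In gut, where p6 has no sample, p5 lay 18.6-fold below p4. In a model with organ and animal, the log2 difference of p5 from the mean of p4 and p6 was -3.08 (standard error 0.25), and with the animals of the study's sample table it was -2.03. Of all 16317 genes tested, 1.18% were called for p5 in either direction.

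The titles and the study's sample table disagree on the animal of 2 samples, the second gut sample (p5 or p6) and the second heart sample (p6 or p5). MTNR1A stood at 1.31 in the second gut sample and at 15.3 in the second heart sample. To see whether other genes showed the same split, genes at least 4-fold lower in p5 than in both other animals in liver and in lung were counted, a rule set after the values were seen. There were 45 such genes among 9547, MTNR1A included, against 13 for p4 and 6 for p6 by the same rule. Of 42 such genes other than MTNR1A with a value in gut, 36 were also at least 4-fold lower in the second gut sample than in the p4 gut sample (85.7%, against 9.38% of all genes). Of 42 with a value in heart, 0 were so in the second heart sample, against 5.2% of all genes. The second brain and skin samples gave 1 of 39 and 1 of 41. On these genes the 2 samples followed their titles.

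**Figure D2:**
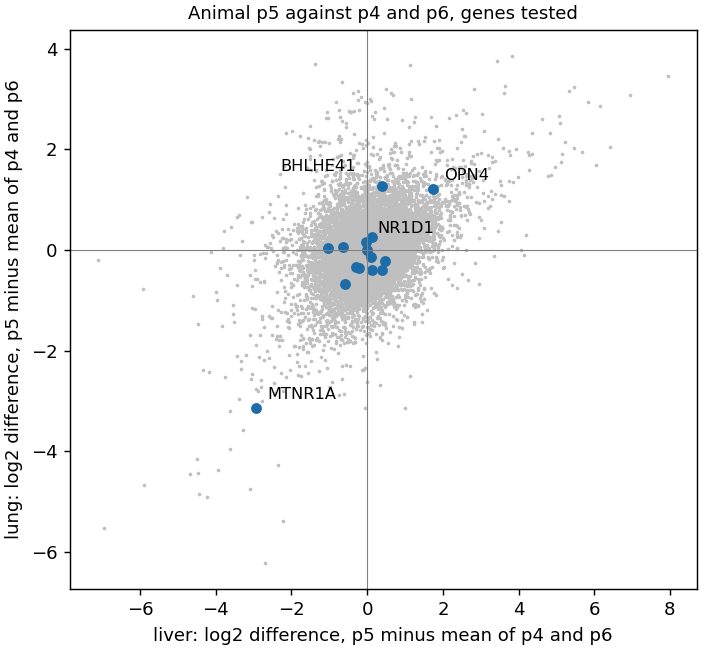
Difference of p5 from the mean of p4 and p6 on log2(normalized TPM + 1) in liver (horizontal axis) and lung (vertical axis) for the 16317 genes tested (grey) and the genes of the clock, melatonin and light-sensing lists (blue). MTNR1A lies at the lower left, apart from the other listed genes, which lie within the cloud or, for OPN4, to its upper right.

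The gap of MTNR1A between p5 and the rest was known when the gene was chosen, so its place among all genes is a description and no support. In 312 genes (1.91%) the 3 p5 samples lay below the other 11, and in 17 (0.104%) the gap was at least 4-fold with all others at 1 normalized TPM or more. MTNR1A is one of these 17. Named genes beside it include DNAH1, a heavy chain of axonemal dynein, EPN1, an adaptor of endocytosis, and ZBTB16, a zinc finger repressor. The reads of all animals were aligned to an assembly built from p4, and its part in the low values of p5 was not tested.

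The 5 named genes most like MTNR1A over the 14 samples followed the same split by animal. Among them were TRMT5 (Pearson r = 0.964 on log2(normalized TPM + 1)), EPN1 (r = 0.961), DNAH1 (r = 0.957) and BOC (r = 0.942), out of 8705 genes ranked. In each, the highest p5 sample lay below the lowest other sample, for DNAH1 at 1.57 against 31.1 and for TRMT5 at 4.39 against 8.67. The widest gap in MTNR1A over the samples is that of p5, so a ranking by likeness to it favours genes with the same split. The shared split is thus no separate finding. The 14 points also share 3 animals, so these correlations are a description.

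Without p5, MTNR1A varied less over the samples than the median gene. The p5 samples were known to be low when the gene was chosen, so leaving them out narrows its spread. The low spread without them is thus a description. Over all 14 samples its highest value was 30.6 times its lowest, against a median of 6.50 times for genes tested and above 0 throughout. Over the 11 samples of p4 and p6 its highest value was 3.39 times its lowest, against a median of 5.68 times for the 13061 genes tested that were above 0 in all of them. Its mean of 20.7 normalized TPM lay above that of 80.2% of genes tested. Skin was highest at 31.6 ± 7.25 (SD, n = 2), followed by the single p4 gut sample at 24.4. Lung (20.8 ± 14.2, n = 2), liver (20.6 ± 6.01, n = 2), brain (14.4 ± 2.55, n = 2) and heart (14.4 ± 1.26, n = 2) came next. The ranges of skin and lung, of lung and liver, and of brain and heart overlapped, so that these neighbours did not differ beyond their spread. Both skin samples (36.7 and 26.5) lay above all p4 and p6 samples of gut, liver, brain and heart (at most 24.9). The share of all genes with that split was not taken.

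With p5 included, the means of the affected organs moved to those of the others. Gut fell to 12.8 ± 16.3 (SD, n = 2), liver to 14.3 ± 11.7 (SD, n = 3) and lung to 14.3 ± 15.1 (SD, n = 3), beside 14.4 in both brain and heart. Skin kept the highest mean. The order below skin depends on the scaling: in TPM as deposited and without p5, brain came second at 30.8 ± 5.32 (SD, n = 2) beside skin at 33.7 ± 7.81 (SD, n = 2), and lung last at 11.3 ± 6.71 (SD, n = 2).

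Tests of organs did not separate MTNR1A. Each organ was set against all other samples with limma, and a gene was called at an adjusted p under 0.05 and a fold change above 2. In skin, MTNR1A lay 1.54 above the rest on the log2 scale (standard error 0.92, adjusted p = 0.635), and 0.80 without the p5 samples (adjusted p = 0.55). For brain, gut, heart, liver and lung its log2 fold changes were 0.29, -0.88, 0.30, -0.33 and -0.58, none of them called, where 14.5%, 1.93%, 0.735%, 2.35% and 0.864% of all genes were, and 2.01% in skin. Without p5, brain turned to -0.51, heart to -0.49, gut to 0.36 and liver to 0.08, while lung was -0.08. With the animal of the title as a block, brain and heart were both at -0.47, gut at 0.01 and liver at 0.16. A test for any difference among the 6 organs gave an adjusted p = 0.709 (0.143 with the animal as a block).

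NR1D1 was low everywhere and highest in skin and heart. The p4 and p6 levels were 1.48 and 3.73 normalized TPM for skin, 1.36 and 3.13 for heart, and 0.493 and 1.59 for brain. In liver the 3 samples stood at 0.272, 0.315 and 0.398 (p4, p5 and p6), and in gut at 0.0801 and 0.0921 (p4 and p5). In lung NR1D1 was listed at 0 in p4 and stood at 0.216 in p5 and 0.175 in p6. All samples of skin, heart and brain thus lay above all samples of gut, liver and lung, whether p5 is counted or not. The share of all genes with the same split was not taken. The ranges of skin and heart overlapped, as did those of heart and brain, so that these neighbours did not differ beyond their spread.

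The difference of NR1D1 among the 6 organs passed the test, with an adjusted p = 0.00593 from limma's F test, and passed in all 27 alternatives tried (adjusted p from 0.00101 to 0.04). It was the 1 call among the 2 members, and 34.2% of all genes tested were called by that test. No single organ passed against all other samples. NR1D1 in skin lay 1.17 above the rest on the log2 scale (standard error 0.45, adjusted p = 0.296) and in heart 1.02 (standard error 0.48, adjusted p = 0.635). These 2 comparisons had an unadjusted p = 0.0196 and 0.0489. With each organ set against the mean of the other 5 and the spread taken within organs, skin passed (log2 fold change 1.11, adjusted p = 0.0276). Skin also passed without the brain and heart samples of p6 (log2 fold change 1.35, adjusted p = 0.0205), an alternative chosen after the data were seen.

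Skeletal muscle transcripts were abundant in the same organs. MYH1, TNNI2 and CKM together, which are all 3 listed markers of skeletal muscle, summed in p4 to 62960 normalized TPM for skin, 2166 for heart and 1536 for brain, and in p6 to 68150, 22520 and 18060. In gut, liver and lung they stood between 5.47 and 669.1. Within brain, heart, skin and lung both NR1D1 and the muscle sum were higher in p6 than in p4. In liver NR1D1 was higher in p6 (0.398 against 0.272 normalized TPM) and the muscle sum was lower (31.14 against 36.98). The part of muscle in the level of NR1D1 was not tested. In bulk RNA, more cells of a type and more RNA per cell cannot be told apart.

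**Figure D3:**
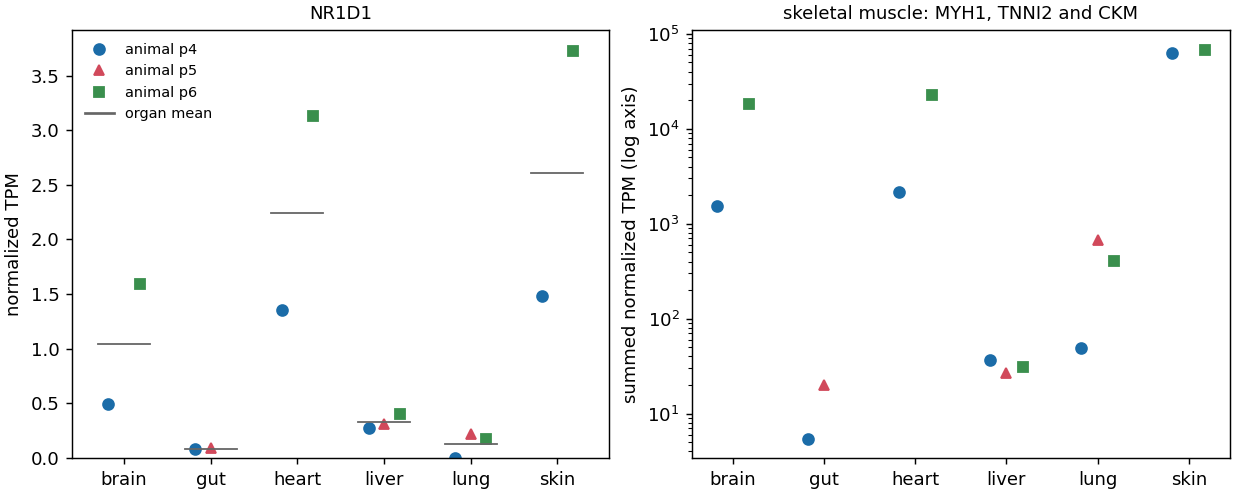
NR1D1 in normalized TPM (left) and the summed normalized TPM of the muscle genes MYH1, TNNI2 and CKM on a log axis (right) in each of the 14 samples by organ; colour and shape give the animal, and lines on the left are organ means. NR1D1 lies between 0.493 and 3.73 in brain, heart and skin and at most at 0.398 in gut, liver and lung.

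The 5 genes most like NR1D1 over the 14 samples, a list added after the data were seen, hold muscle genes. They were 2 rows of TTN, the giant spring protein of muscle (r = 0.969 and 0.964), DUSP26, a phosphatase (r = 0.972), ZBTB45, a zinc finger protein (r = 0.964), and ASB2, a subunit of ubiquitin ligases in muscle (r = 0.962). A ranking by likeness to NR1D1 favours genes that are high in the same organs, so this list is a description and no separate finding. The share of muscle genes among all genes ranked was not taken.

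Samples of 1 animal share its time of death, so p6 was also set against p4 over the 5 organs that both have, with organ in the model. NR1D1 was higher in p6 in 5 of 5 organs, with a log2 difference of 0.56 (standard error 0.18, unadjusted p = 0.00964, adjusted p = 0.24). MTNR1A was lower in p6 in 4 of 5 organs, all but heart, with a log2 difference of -0.54 (standard error 0.21, unadjusted p = 0.0291, adjusted p = 0.299). Neither member was called, and 0.0368% of all genes were. Higher values in p6 in all 5 organs were found in 5.32% of genes tested and lower values in all 5 in 8.83%. For p5 against p4 and p6, NR1D1 had a log2 difference of -0.02 (standard error 0.21, adjusted p = 0.985). It was not called, where 1.18% of all 16317 genes tested were, in either direction. Each side of these comparisons is 1 or 2 animals, so the p-values measure the spread between organ samples and not between animals.

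Of the wider list, 7 of 13 tested genes with a row carried no organ difference past either test. The other 6 passed at least the test among organs, which 34.2% of all genes tested passed. CRY5, found by its description as cryptochrome 5, a flavoprotein of the family of light-sensing photolyases, did not pass the filter and stood at most at 1.54 normalized TPM, in the p5 lung sample. Over the 15 genes tested, members included, 3 were called higher in brain, 1 higher in liver and 0 in gut, heart, lung or skin. With TPM as deposited, 8 genes were called, all in brain, where the scaling factor is highest. The share of all genes called on that scale was not taken, so the 8 cannot be set against it. On normalized TPM, the background was 11.2% of all genes called higher in brain and 2.29% in liver, beside the shares given above for the other organs. The median log2 fold change of the 15 genes in brain was 0.41, against 0.04 over all genes tested.

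Among the output factors, TEF, a bZIP activator that carries the rhythm of the clock to its targets, rose in brain. It stood at 65.2 normalized TPM in p4 and 19.9 in p6, and between 1.81 and 8.82 in the other 12 samples, with the skin sample of p6 the highest. The groups did not overlap, but the share of all genes with such a split was not taken, and 11.2% of all genes were called higher in brain. The log2 fold change was 3.23 (standard error 0.44, adjusted p = 9.36e-05 from limma), and TEF was called in all 28 alternatives. Its size rests on the 2 brain samples: the log2 fold change was 2.39 without the p4 brain sample and 4.05 without that of p6.

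BHLHE41, also called DEC2, a repressor that competes with CLOCK and ARNTL on DNA, was called higher in liver on normalized TPM. It stood at 35.4, 50.2 and 41.2 normalized TPM in the livers of p4, p5 and p6, then at 24.5 and 19.6 in the brains of p4 and p6, and at most at 10.1 elsewhere. All 3 liver samples lay above the other 11 on this scale, a split whose share among all genes was not taken. In TPM as deposited the order turned, with the brains at 52.4 and 42.1 above the livers at 26.8, 38.6 and 30.2 (p4, p5 and p6). The log2 fold change in liver was 2.38 (standard error 0.52, adjusted p = 0.019). It did not pass without the liver sample of p4, p5 or p6 (adjusted p = 0.0893, 0.109 and 0.109), without the 3 p5 samples (0.161), with TPM as deposited (0.511) or with the animal of the sample table as a block (0.0501). In lung, BHLHE41 stood at 1.49 in p4, 10.1 in p5 and 7.41 in p6, the samples whose liver markers summed to 377.7, 19180 and 14310, and the part of liver transcripts in these values was not tested. BHLHE41 was not called in brain (log2 fold change 1.13, adjusted p = 0.441), but was with TPM as deposited (2.36, adjusted p = 0.0324) and in the fit with 1 mean per organ (1.26, adjusted p = 0.0444).

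BHLHE40, its relative DEC1, did not differ between organs past the test. It stood between 1.25 and 6.54 normalized TPM, lowest in the p5 gut sample and highest in the p4 gut sample. NOCT, the enzyme nocturnin, matched through its older symbol CCRN4L, stood between 2.82 and 7.05, higher in p6 than in p4 in 5 of 5 organs. CIART, a circadian repressor, stood at most at 1.20, in the p6 brain sample, and was called in brain with TPM as deposited alone (adjusted p = 0.000504).

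Proteins that destroy clock proteins were higher in brain. FBXW11 and BTRC encode paired F-box proteins (β-TrCP) that mark phosphorylated PER for breakdown. FBXW11 stood at 69.7 and 49.5 normalized TPM in the brains of p4 and p6 and between 14.4 and 36.8 elsewhere, a log2 difference of 1.19 (standard error 0.33, adjusted p = 0.0203). It did not pass without the brain sample of p4 (adjusted p = 0.454) or p6 (0.0570), or without the brain and heart samples of p6 (0.0727). BTRC stood at 2.59 and 1.32 in brain, at 0.724 in the p5 gut sample and 0.562 in the p4 heart sample, and was listed at 0 in the other 10 samples. Its log2 fold change on log2(normalized TPM + 1) was 1.41 (standard error 0.23, adjusted p = 0.000501), and 0.44 with a pseudocount of 5, under the limit of 1. As close relatives, FBXW11 and BTRC can share reads, which the alignment could split between them.

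**Figure D4:**
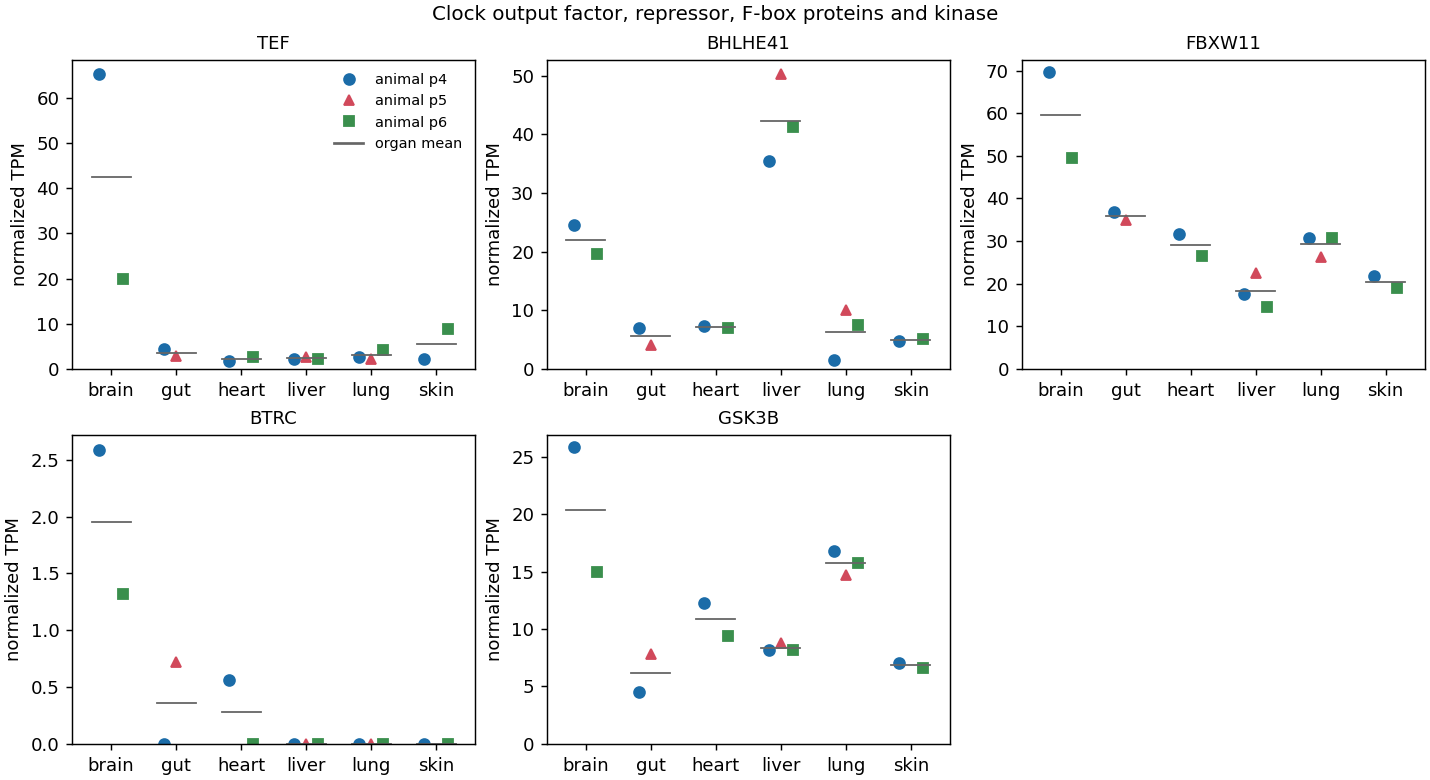
Normalized TPM of TEF, BHLHE41, FBXW11, BTRC and GSK3B in each of the 14 samples by organ; colour and shape give the animal and lines are organ means. Both brain samples lie above all others for TEF, FBXW11 and BTRC, and all 3 liver samples do so for BHLHE41. The share of all genes with such splits was not taken.

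GSK3B, a kinase that acts on several clock proteins, stood at 25.8 and 14.9 normalized TPM in brain (p4 and p6), 14.7 to 16.8 in lung, and between 4.50 and 12.3 elsewhere. It differed among the 6 organs (adjusted p = 0.00797) and was not called for a single organ against all other samples on normalized TPM (brain 0.99, adjusted p = 0.104). Brain was called with TPM as deposited (log2 fold change 2.24, adjusted p = 0.000332) and in the fit with 1 mean per organ (1.05, adjusted p = 0.00847). In all, 7 of the 15 genes tested passed the test for any difference among organs, among them NR1D1, TEF, BHLHE41, FBXW11, BTRC and GSK3B. Of all genes tested, 34.2% passed it.

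USP2, a deubiquitinase that removes ubiquitin from clock proteins, stood at 2.03 and 2.80 normalized TPM in skin and at most at 1.43 elsewhere. The share of all genes with such a split was not taken. The adjusted p of USP2 for skin was 0.0438, but its log2 fold change of 0.86 (standard error 0.21) lay under the limit of 1. It did not pass limma's F test among the 6 organs (adjusted p = 0.105). SIRT1, a deacetylase that acts on the clock, stood between 5.08 and 10.6, lowest in the p5 gut sample and highest in the p4 skin sample, and was called in no organ.

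Of 14 listed light sensors, 3 had a row: OPN4, OPN1SW and CRY5. OPN4, melanopsin, a photopigment that takes part in setting the clock by light, was found in all 14 samples in the higher of its 2 rows. Its mean lay above that of 48.3% of genes tested. It stood at 3.83, 17.97 and 5.61 normalized TPM in the livers of p4, p5 and p6. In lung it stood at 0.274, 4.07 and 2.72 in the same order, and in gut at 2.26 and 3.89 (p4 and p5). The p5 samples of gut and lung thus lay above the p4 liver sample. Levels of p4 and p6 were 2.16 and 2.01 in brain, 2.014 and 1.585 in heart, and 0.464 and 0.643 in skin. The part of liver transcripts in the lung values was not tested. In liver its log2 fold change from limma was 1.62 (standard error 0.46, adjusted p = 0.0934), not called, and 1.25 without the p5 samples (adjusted p = 0.279). It was called in the fit with 1 mean per organ (log2 fold change 1.63, adjusted p = 0.0277). The second row of OPN4 was listed at 0 in 13 samples. OPN1SW, a cone opsin for short wavelengths, stood between 0.739 and 4.43, highest in the p4 brain sample. It was called in no organ on normalized TPM, and in brain with TPM as deposited (adjusted p = 0.00774).

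**Figure D5:**
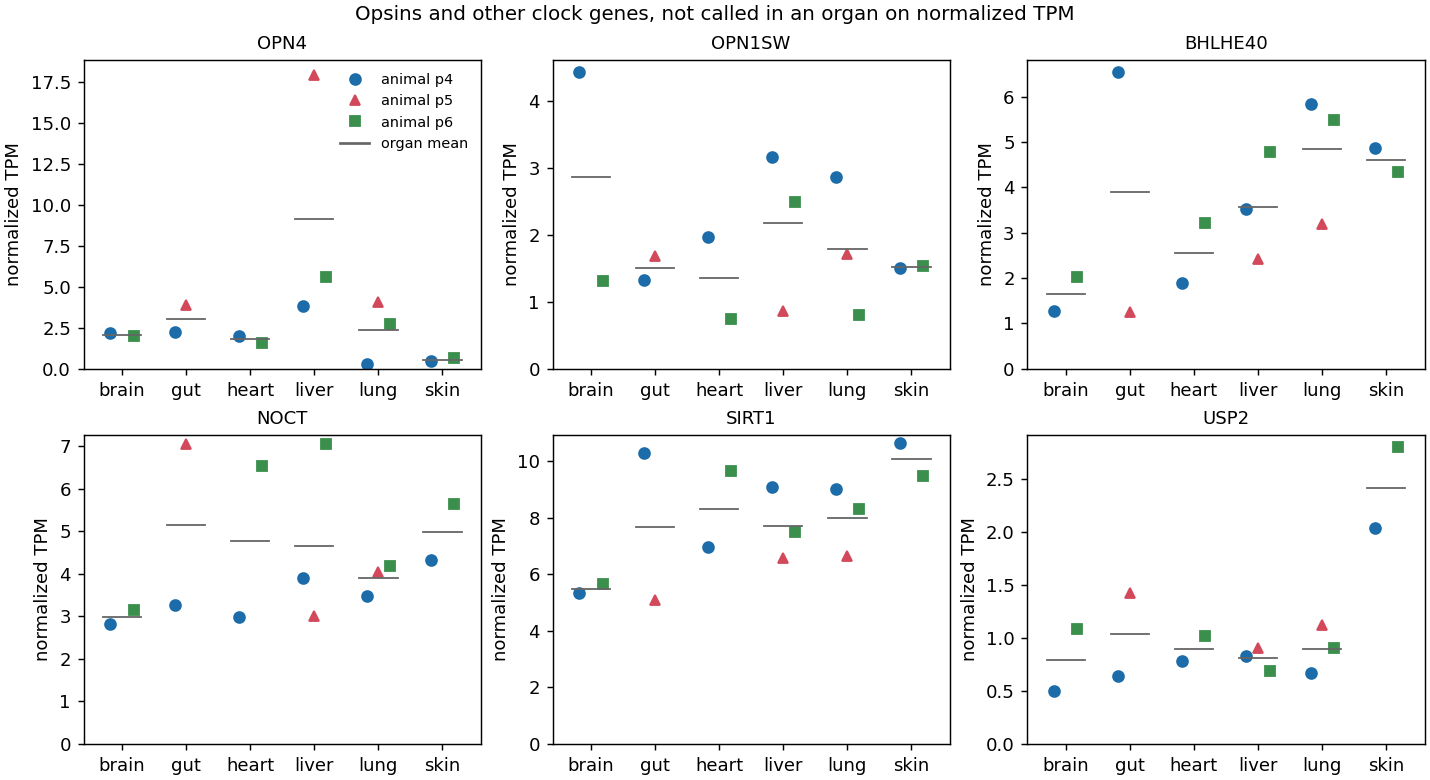
Normalized TPM of OPN4 (higher row), OPN1SW, BHLHE40, NOCT, SIRT1 and USP2 in each of the 14 samples by organ; colour and shape give the animal and lines are organ means. None was called in an organ on normalized TPM. OPN4 reaches 17.97 in the p5 liver sample and USP2 is highest in both skin samples, a split whose share among all genes was not taken.

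No row used here carries the names of the enzymes of melatonin synthesis (TPH1, TPH2, DDC, AANAT, ASMT), of the receptors MTNR1B and GPR50, or of the ROR activators, and they were not analysed here. The same holds for the partners NPAS2 and ARNTL2, the outputs DBP, HLF and NFIL3, and the kinases CSNK1D and CSNK1E.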

How the data were processed

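Per the methods of the study, the authors trimmed the reads with Cutadapt and Trimmomatic, used bwa mem with 1 longest transcript per annotated gene from a hybrid assembly of animal p4 as the target, and counted them with featureCounts. The deposited unit is TPM, given for 18924 genes, with a sum of 1000000 per column, and every sample column was used. How TPM were made and whether reads sharing a molecular identifier were merged is not given in the sources used here. A count model was not used, since TPM hold no counts.

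Here each sample was scaled by median ratios over 13067 genes above 0 throughout, and log2(value + 1) was taken, a scale that understates changes of low genes. Testing covered 16317 genes that reached a TPM of 1 in 2 or more samples and was done with limma 3.58.1 under R 4.3.3, with a variance trend, two-sided, and Benjamini-Hochberg adjustment over all genes. Calls needed an adjusted p under 0.05 and an absolute log2 fold change above 1, and the test over 6 organs an adjusted p under 0.05. The procedure was tested on simulated data. Where several rows share a name, the row of highest mean TPM stands for it.

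The members, lists and tests were chosen with earlier results of these data known. Some genes counted in these lists are not reported here by name. Named are otherwise all members, listed genes called for an organ or described by their range, and the 5 named genes most correlated with MTNR1A. NOCT, CRY5, the likeness to NR1D1, the genes low in 1 animal and those far below in p5 were added after values were seen. The animal pairs samples, as the titles name it: deviations from organ means had a median correlation of 0.16 over 28 pairs of samples from the same animal and -0.0766 over 53 pairs from different animals. Samples of 1 organ come from different animals.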

Additional observations from a re-analysis of the deposited data

How the results depend on the processing

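Alternatives tried were other pseudocounts (0.1, 5), another filter (none, or a mean TPM of at least 1), TPM as deposited, quantile normalization, TPM summed over rows of a name, a model of the 6 organs, the animal as a replicate block, the animals of the sample table, no p5 samples, and each sample left out in turn. Chosen after the data were seen were leaving out the p6 brain and heart samples, the p5 and p6 lung samples, and the gut and heart samples of unsettled animal. The number of members called stayed at 0 for brain, gut, heart, liver, lung and p6 against p4, and at 1 for the test among organs, in each alternative run. For p5, NR1D1 alone was tested, since MTNR1A was chosen with its p5 level known, and was not called in any. For skin it was 1 (NR1D1) in place of 0 in the model of 6 organs and without the p6 brain and heart samples. The listed genes called in at least 1 organ numbered 4, and 8 with TPM as deposited, 7 in the model of 6 organs, and fewer without the p4 or the p6 brain sample. Shares of all genes called were not taken for these alternatives.

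MTNR1A turned its uncalled direction in several fits. With the replicate block by title, its log2 fold change was -0.47 in brain and heart, 0.01 in gut and 0.16 in liver, and by the sample table -0.13 in brain. Without the p5 samples it was -0.51 in brain, 0.36 in gut, -0.49 in heart and 0.08 in liver. Leaving out each sample gave -2.60 to 0.87 in gut, -0.96 to 0.65 in liver and -1.47 to 0.47 in lung. It was 0.88 in gut without the samples of unsettled animal and 1.20 in lung without the p5 and p6 lung samples. NR1D1 in brain ran from -0.16 to 0.62 with each sample left out and was -0.04 without the p6 brain and heart samples. Its difference for p5, -0.02, became 0.19 with a pseudocount of 0.1, 0.00 with quantile normalization, 0.21 with the animals of the sample table, 0.07 without the unsettled samples, and -0.13 to 0.07 with each sample left out. OPN1SW in brain ran from -0.18 to 1.04 with each sample left out, the lowest without the p4 brain sample. The cause of these turns was not tested. The replicate block changed 1 call, that of BHLHE41 in liver (adjusted p = 0.0501 by the sample table). With 2 or 3 samples an organ, and no depth in TPM, differences of genes near 0 were not detectable below this spread.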
